A study of Mus musculus with 6 samples.

Results

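Cytosolic ribosomal protein genes were examined in mouse embryonic stem cells differentiated with retinoic acid. The set holds every symbol of the expression table that names a protein of the cytosolic large subunit (Rpl), the stalk (Rplp0, Rplp1, Rplp2) or the small subunit (Rps, Rpsa), without S6 kinase genes and without symbols marked as pseudogenes. It has 81 of the 24002 genes in the table, 49 of the large and 32 of the small subunit. The choice used symbols and no expression value. R1, a mouse embryonic stem cell line, was kept with 15% serum replacement and 1000 U/ml LIF, hung in drops for 48 h to form embryoid bodies, and given retinoic acid at a labelled 0.5 mM until day 6, a dose whose unit is uncertain because micromolar doses are usual. Polyadenylated RNA of 3 samples was sequenced, and 3 other samples were used for ATAC-seq, a profile of open chromatin that is not analysed here. All samples share 1 line and 1 condition, and no untreated, earlier or LIF-maintained group is at hand, so the values are levels and not changes. Whether the replicates were separate cultures is not stated, and their spread may be purely technical.

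The labels call the cells mouse embryonic stem cells, the source of the culture. At day 6 the stem cell genes Nanog (0.0595, 0.122 and 0.0818 FPKM in replicates 1, 2 and 3) and Pou5f1 (0.737, 0.814 and 0.895) were below 1 FPKM. All 16 neuron markers, all 12 neural progenitor markers and 18 of 19 extraembryonic endoderm markers (all but Apob, with a mean of 0.420 FPKM) reached 1 FPKM in every replicate. Of all genes in the table, 50.7% did so. In such bulk RNA, fewer cells of a type and less RNA per cell cannot be told apart. Whether each marker is confined to its cell type here was not tested. FPKM is the number of sequenced fragments per length of transcript, scaled to the mapped total, so levels of different genes can be compared per length. FPKM summed to 477760 to 524717 per library, and read totals are unknown. Judged from low values, replicate 1 was sequenced 1.56 times as deeply as replicate 2 and 1.17 times as deeply as replicate 3.

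A cytosolic ribosome joins a small subunit, which reads the mRNA, to a large subunit, which forms peptide bonds and carries a flexible stalk that recruits elongation factors. Each ribosomal protein is present once per ribosome, apart from the stalk proteins P1 and P2, so cells need the proteins in matched amounts. Their genes are among the most active housekeeping genes, and their mRNAs begin with a terminal oligopyrimidine (TOP) tract through which mTOR signalling and Larp1 control translation. Mammalian genomes also hold many processed copies of these genes, which makes short reads hard to assign. Ribosome production is known to be high in pluripotent and early neural progenitor cells.

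Ribosomal protein mRNAs were abundant in these embryoid bodies. Of the 81 genes, 80 reached 1 FPKM in every replicate, against 50.7% of all genes, and 66 reached 100 FPKM in every replicate (81.5%), against 2.02% of all genes. The median of the set was 329, 336 and 332 FPKM in replicates 1, 2 and 3, whereas the median of all genes was 1.31 FPKM and that of genes reaching 1 FPKM in every replicate 10.01. The set made up 66 of the 525 genes averaging 100 FPKM or more, and 34 of the 100 highest genes once small RNA genes were set aside by symbol. Together its members held 6.30%, 6.54% and 6.05% of all summed FPKM in the 3 replicates, or 9.71%, 9.70% and 9.85% without small RNA genes. As FPKM divides by length, these are shares of transcripts rather than of reads.

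The genes did not share 1 level. The middle of the set ran from 185 FPKM at the first quartile to 567 at the third, a ratio of 3.07. Within 2-fold of the median lay 49 genes, 13 were higher and 19 were lower. The 10 highest genes held 30.4% of the set's summed FPKM. From Rplp1 at the top to Rps15a, the lowest of the 80 genes above 1 FPKM, mean levels differed 231-fold. This width depends on how the copies described below are treated, as Rps15a averaged 5.84 FPKM alone and 205 with its copies added. When the genes were ordered by mean, the replicate ranges of 55 of the 80 neighbouring pairs overlapped and those of 25 did not, so most neighbours could not be ranked beyond their spread. The plot of levels by gene shows a long plateau followed by a steep fall over the last genes of each subunit. Of the 15 genes under 100 FPKM in at least 1 replicate, 7 have a named copy, so the fall carries the same doubt.

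**Figure D1:**
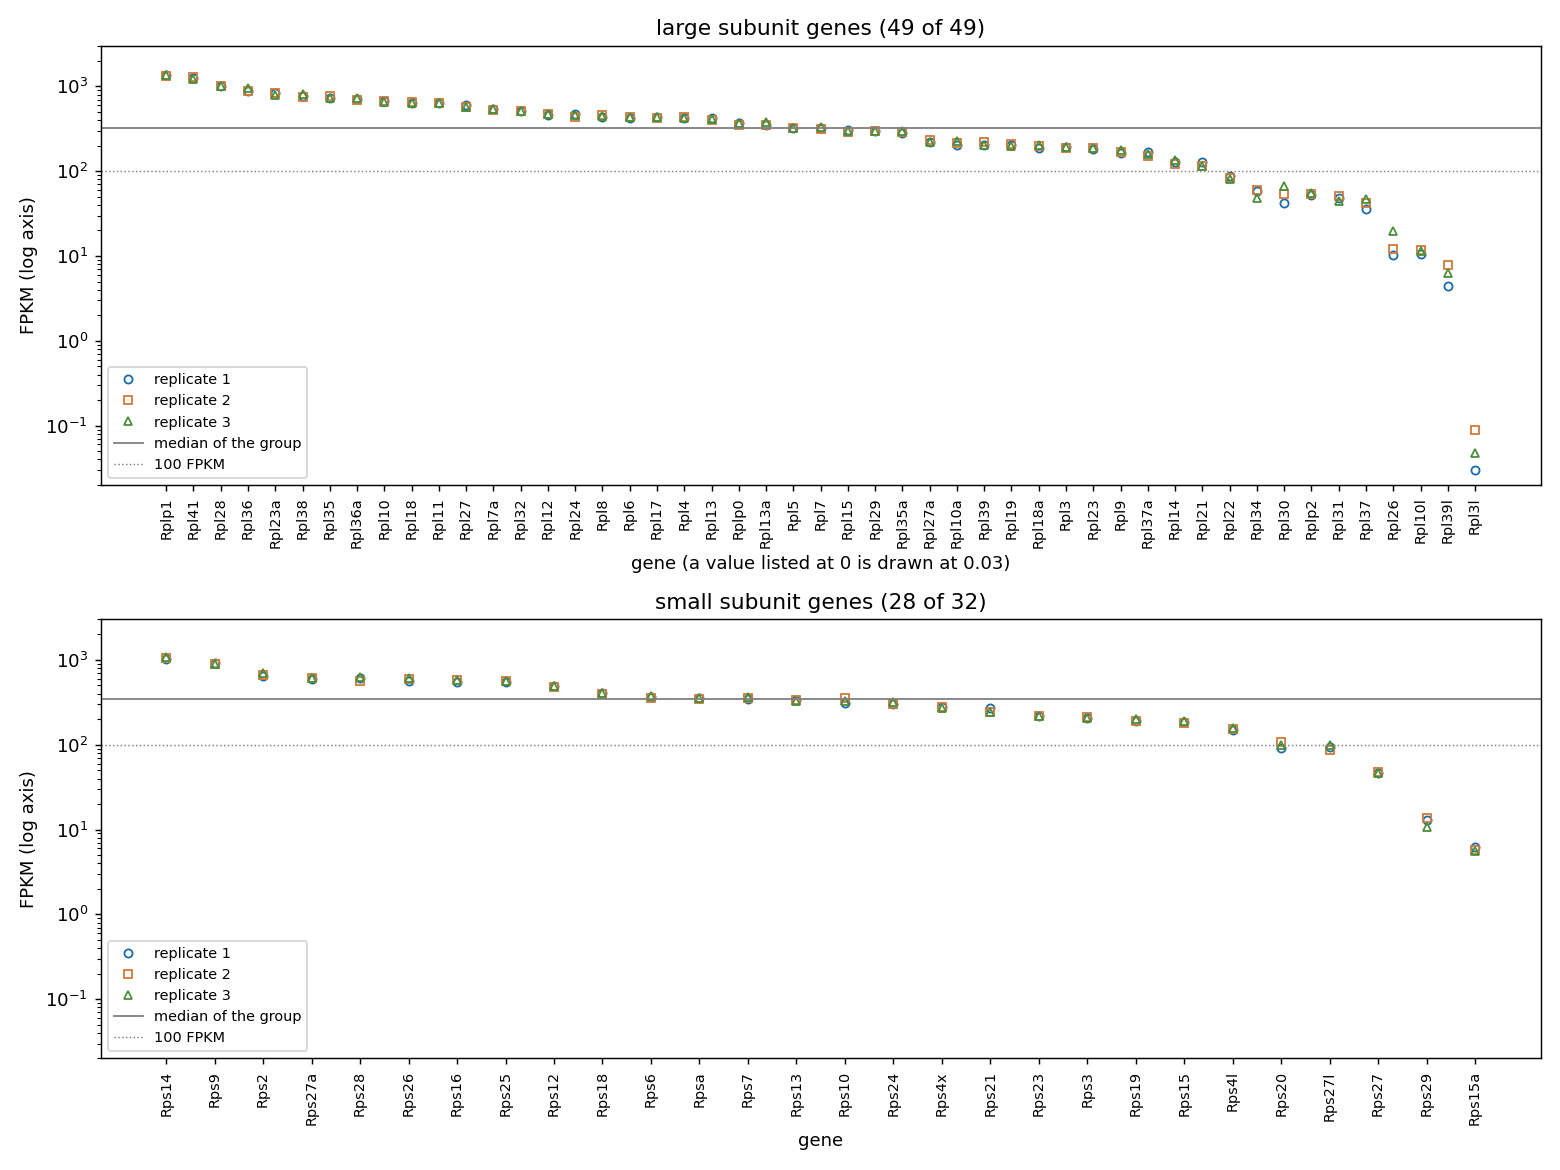
FPKM (log axis) of ribosomal protein genes, 49 of the large subunit above and 28 of the 32 of the small subunit below, with 1 symbol per replicate; the solid line is the median of all genes of the subunit and the dotted line 100 FPKM. The 3 replicates nearly coincide for most genes, the last genes of each panel fall below 100 FPKM, and Rpl3l stands alone near 0.

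At the top stood a stalk gene and the gene of the smallest ribosomal protein. Rplp1, which encodes the stalk protein P1, reached 1363, 1313 and 1371 FPKM in replicates 1, 2 and 3. Rpl41, which encodes a peptide of the large subunit, reached 1268, 1285 and 1231 FPKM. The lowest Rplp1 value lay above the highest Rpl41 value, and both lay above every other member in every replicate. Rps14, a small subunit gene known from the 5q- syndrome, stood at 1025, 1048 and 1085 FPKM. Rpl28 stood at 1003, 1007 and 1011 FPKM, and its range did not meet that of Rps14.

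The next places were closer together. Rpl36 stood at 884, 891 and 956 FPKM and Rps9, which helps decoding accuracy at the small subunit, at 916, 884 and 900. These ranges overlapped, so the pair has no order beyond its spread. Rpl23a, which lies at the peptide exit tunnel, stood at 826, 846 and 788 FPKM. Rpl38 (776, 746 and 818 FPKM) and Rpl35 (737, 767 and 737) also overlapped.

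Large subunit genes of the plateau can be placed by the part of the ribosome they build. Rpl4, which lines the peptide exit tunnel, stood at 424, 434 and 429 FPKM, and Rpl17, at the mouth of the tunnel, at 435, 419 and 435. Rpl8, near the peptidyl transferase centre, stood at 438, 455 and 449 FPKM, and Rpl12, at the base of the stalk, at 464, 470 and 467. Other genes of the same parts lay outside these levels, Rpl23a of the exit tunnel above and Rplp0 of the stalk below. Rpl18 (640, 653 and 637 FPKM), Rpl27 (605, 573 and 575) and Rpl7a (538, 527 and 536) lay above Rpl12. Rpl13a, which also silences mRNAs in the interferon response, stood at 353, 350 and 384 FPKM, and Rpl10a, at the stalk opposite the P proteins, at 205, 217 and 228. Rpl21 was the lowest large subunit gene above 100 FPKM in every replicate, at 127, 117 and 116.

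Small subunit genes of the plateau were similarly spread. Rps2 and Rps3, whose proteins sit at the mRNA entry channel, stood at 655, 673 and 710 FPKM and at 208, 213 and 209, with no overlap although they are neighbours in the subunit. Rps27a, made as a fusion to ubiquitin, stood at 601, 615 and 618 FPKM, and Rps25, needed by some viral internal ribosome entry sites, at 554, 560 and 572. Rpsa, whose protein is also described as a laminin receptor, stood at 358, 351 and 358 FPKM, close to the median of its subunit. Rps28 (613, 565 and 630 FPKM), Rps16 (544, 581 and 575), Rps12 (490, 483 and 499) and Rps18 (409, 398 and 413) lay above that median. Rps13 (338, 336 and 332), Rps21 (271, 245 and 242) and Rps15 (184, 181 and 189) lay below it.

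Large and small subunit genes had similar medians. The large subunit median was 320, 315 and 326 FPKM in replicates 1, 2 and 3, and the small subunit median 344, 351 and 345. On the log2(FPKM + 1) scale the large subunit lay below the small one by 0.10, 0.16 and 0.08 in the replicates. This sign depends on how copies are treated: with the FPKM of the named copies described below added to each gene, the difference became 0.22 in the other direction. Of the genes of each subunit, 39 of 49 (79.6%) large and 27 of 32 (84.4%) small reached 100 FPKM in every replicate. With a single condition there is no contrast to test, and genes are not replicates, so no p-value belongs to these values.

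The stalk genes did not match each other. Rplp0, which anchors the stalk to the subunit, stood at 370, 355 and 366 FPKM. Rplp1 was several times higher, and Rplp2, which encodes the partner P2 of P1, stood at 51.8, 54.1 and 55.5. The 3 ranges were apart. The table also lists Rplp2-ps1, annotated by RefSeq as a transcribed pseudogene, at 269, 267 and 277 FPKM, and Rplp2 with this copy added reached 325 ± 7.01 (SD, n = 3).

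Several genes below 100 FPKM had a named copy in the table. The copies were found after the values were seen, either by their symbol or by a RefSeq synonym, for 11 of the 81 genes. Symbols marked as pseudogenes were named only with a mean of at least 1 FPKM. Of the 15 genes under 100 FPKM in at least 1 replicate, 7 had such a copy (46.7%), against 4 of the 66 others (6.06%). Because the list was drawn up with the values known, these shares describe it and test no link between level and copies. The copy stood above the gene in every replicate for 8 genes, namely Rpl14 and all 7 of the low ones. How the authors' counting divided reads between a gene and its copy is not given, so each value of these 11 genes is uncertain. Other genes with close relatives may be affected in the same way.

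Rpl26, a large subunit gene that is mutated in a few families with Diamond-Blackfan anaemia, stood at 10.3, 12.02 and 19.5 FPKM. Gm15772, a transcribed pseudogene for which RefSeq lists Rpl26 as a synonym, stood at 826, 817 and 832. The copy was therefore listed at 80.0, 67.9 and 42.6 times its gene. Rps15a, a gene of the small subunit, stood at 6.16, 5.71 and 5.65 FPKM. Its copies were far higher, with Rps15a-ps4 at 70.8, 66.1 and 73.5 and Rps15a-ps6 at 129 ± 0.312 (SD, n = 3). Rps15a was the lowest gene of the small subunit. Its replicates hardly differed, but such agreement does not cover an error in dividing reads between gene and copies, which was not tested.

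Some copies that RefSeq counts as protein coding were also higher than the gene, while those of Rpl32 and Rps23 were lower. Rpl31 stood at 48.1, 51.2 and 44.0 FPKM and Rpl31-ps12 at 664, 721 and 715. Rpl34 stood at 58.3, 59.4 and 48.7 FPKM and Rpl34-ps1 at 697, 642 and 709. Rps27, a zinc finger protein gene of the small subunit, stood at 45.9, 47.3 and 45.9 FPKM and Rps27rt at 509, 479 and 527. In each of these pairs the copy was listed at 10.1 to 16.3 times the gene, with no overlap.

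Rpl37 stood at 35.9, 42.4 and 46.9 FPKM and Gm13826, which RefSeq calls Rpl37rt, at 310, 335 and 328. Rpl14 stood at 130, 123 and 137 FPKM and Rpl14-ps1 at 510, 530 and 536. In the other direction, Rpl32 (512 ± 5.62 FPKM; SD, n = 3), Rps23 (219 ± 1.46) and Rps19 (195 ± 4.34) lay far above their copies Gm6251 (7.62 ± 2.21), C330021F23Rik (8.11 ± 0.866) and Rps19-ps3 (26.0 ± 2.09). A copy named in the table was thus not always the higher one.

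With copies added, the 7 low genes with a copy came to lie among the others. Each of their copies was listed above its gene, so a large rise followed from the choice of copies. Whether read assignment accounts for the low values was not tested. The 7 low genes with a copy then had means of 205 to 839 FPKM, and the genes reaching 100 FPKM in every replicate numbered 73 instead of 66. The median of the 11 genes was 53.8 FPKM alone and 519 with copies, and that of the 70 genes without a named copy was 362. Sums of FPKM over genes of unequal length are only approximate. The plot of genes and copies shows the gap within each pair.

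**Figure D2:**
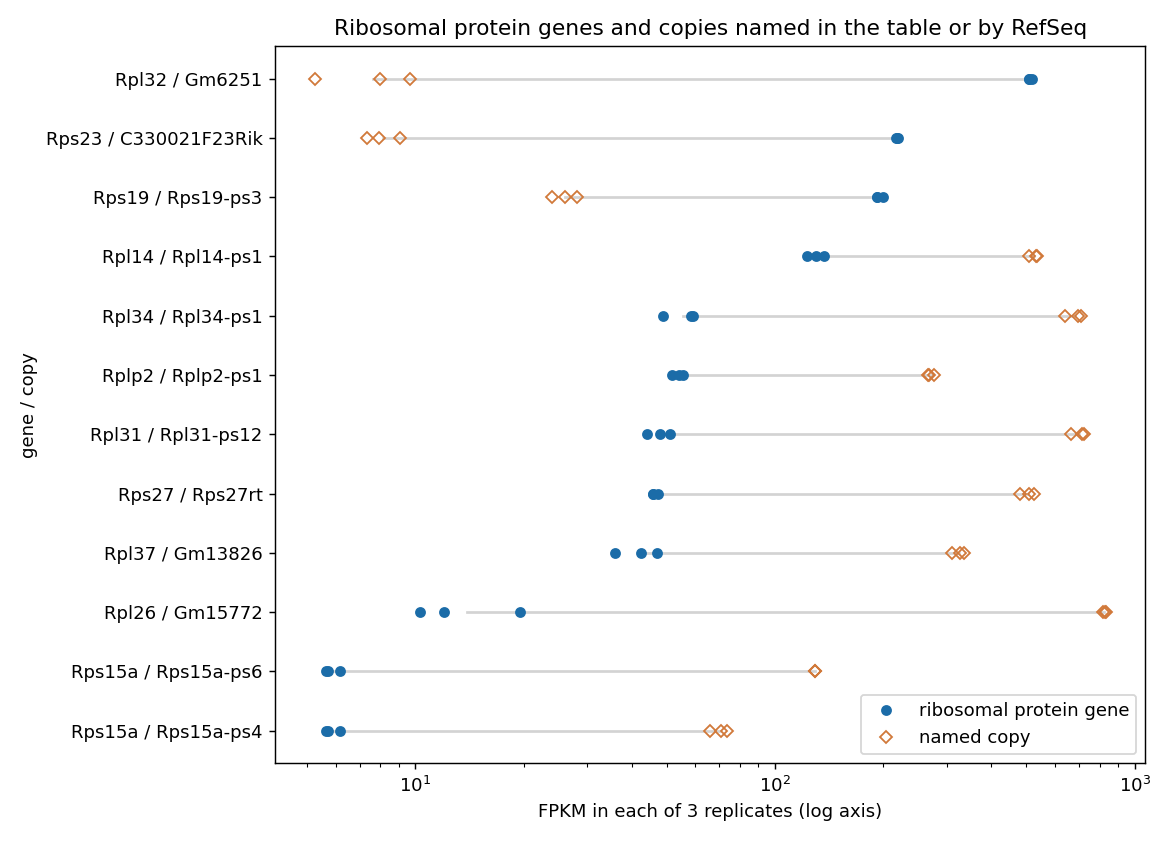
FPKM (log axis) in each of 3 replicates for ribosomal protein genes (filled circles) and the copies named for them (open diamonds), joined by a line between their means. Copies lie to the right of the gene in 9 of 12 rows, by up to 80.0 times for Rpl26 in replicate 1, and to the left for Rps19, Rps23 and Rpl32.

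The remaining 8 low genes had no named copy in the table. Rpl30 stood at 41.9, 54.1 and 66.2 FPKM and Rps29, another Diamond-Blackfan gene, at 12.9, 13.7 and 10.7. Rps20, whose mutation darkens the skin of mice, stood at 91.0, 107 and 99.4 FPKM and so crossed 100. Other copies of these genes may exist outside the table and their part in these values was not tested. The other 5 were Rpl22, Rps27l, Rpl10l, Rpl39l and Rpl3l, all of them with a paralogue.

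Paralogues known from particular tissues were low. Rpl3l, a gene of heart and skeletal muscle, was listed at 0, 0.0894 and 0.0479 FPKM, while Rpl3 stood at 193, 188 and 192. It was the single member under 1 FPKM, and such small values can be failed estimates as well as absence. Rpl10l, an intronless gene of the male germ line, stood at 10.4, 11.8 and 11.6 FPKM against 664, 670 and 654 for the X-linked Rpl10. Rpl39l, also known from spermatogenesis, stood at 4.38, 7.77 and 6.34 FPKM against 203, 218 and 205 for Rpl39. Rpl10 was 56.3 to 63.6 times and Rpl39 28.1 to 46.3 times its paralogue, in every replicate far outside the spread.

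Broadly expressed paralogues were closer to each other. Rpl22 stood at 87.9, 83.9 and 80.3 FPKM and Rpl22l1, its partly interchangeable relative, at 26.7, 24.2 and 26.5, a ratio of 3.03 to 3.47. Rpl36a (716, 690 and 721 FPKM) lay 3.69 to 4.03 times above Rpl36al (190, 187 and 179). Rpl7 (320, 315 and 332 FPKM) lay 13.0 to 13.9 times above Rpl7l1 (24.1, 24.3 and 23.9). Rpl22l1, Rpl36al and Rpl7l1 fall outside the symbol rule and are given only beside their relatives. None of these pairs overlapped.

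In the small subunit, Rps27l, a p53 target gene, was listed above Rps27. Rps27l stood at 94.7, 86.0 and 99.7 FPKM, so that Rps27 was listed at 0.485, 0.549 and 0.460 of it. The copy Rps27rt was above both, and with it added Rps27 reached 551 ± 23.4 FPKM (SD, n = 3), above Rps27l. The direction within this pair therefore rests on how Rps27rt is counted. The X-linked Rps4x stood at 279, 276 and 270 FPKM and Rps4l at 148, 154 and 157, a ratio of 1.72 to 1.89. RefSeq annotates Rps4l as a transcribed pseudogene, the single member that is not annotated as protein coding. All 8 paralogue pairs were apart in every replicate, but both genes of a pair were measured in the same 3 libraries, where an exact two-sided test of paired signs cannot give a p below 0.25, and no test was made. How reads shared by paralogues were divided is not given either. The spread between replicates does not cover such an error, so the ratios of all 8 pairs carry this doubt.

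Genes of Diamond-Blackfan anaemia, a failure of red cell production caused by too little of 1 ribosomal protein, were widely spread. Rpl26 and Rps29 ranked 76th and 77th of the 81 genes, and none of the 12 was among the 10 highest. All 12 listed genes reached 1 FPKM in every replicate, against 50.7% of all genes. In every replicate 10 reached 100 FPKM, against 81.5% of the full set and 2.02% of all genes. Their median was 315 FPKM against 332 for the full set. Rpl11 (635, 633 and 635 FPKM) and Rps26 (565, 592 and 620) were among the highest, and Rpl26 and Rps29 were the lowest. Rps19, the gene most often mutated in the disease, stood at 193, 192 and 200 FPKM. Rps24 (300, 299 and 317 FPKM), Rps10 (307, 359 and 331), Rpl15 (306, 287 and 301) and Rpl35a (281, 291 and 300) lay close to each other in the middle, with overlapping ranges between neighbours. Rpl11, with Rpl5 (322, 323 and 326 FPKM), forms the 5S particle that binds Mdm2 and releases p53. Rpl11 and Rpl5 were among the steadiest genes of the set, with SDs of log2(FPKM + 1) of 0.0025 and 0.0096. Rpl23, which can also bind Mdm2, stood at 185, 187 and 186 FPKM, below both.

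Genes with known mouse mutants were all present at high levels. Rpl38, whose loss in Tail-short mice alters the axial skeleton and the translation of a subset of Hox mRNAs, was eighth of the 81 genes. Rpl24, mutated in Belly spot and tail mice, stood at 477, 435 and 457 FPKM and Rpl27a, mutated in sooty foot ataxia mice, at 220, 231 and 220. Rps6, the substrate of S6 kinase, stood at 363, 352 and 372 FPKM, Rps7 at 349, 352 and 364, and Rpl29, whose loss makes mice small, at 296, 300 and 296. Of the 8 listed genes 7 reached 100 FPKM in every replicate, Rps20 being the exception, against 81.5% of the full set and 2.02% of all genes. The list median was 326 FPKM, near that of the full set.

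The level of the genes was also compared between replicates. The deviation of a gene in a replicate is its log2(FPKM + 1) there minus the gene's average, taken for genes averaging 1 FPKM or more. The median deviation of the 80 members was -0.0075, -0.00036 and 0.0096 in replicates 1, 2 and 3, against 0.00016, 0.0017 and -4.3e-05 for all 12432 such genes. Of 78 members averaging 10 FPKM or more, 35 were highest in replicate 3 (44.9%), where 27.2% of all genes were. No test was made of these shifts. Leaving out the 11 genes with a copy gave -0.0072, 0.00041 and 0.0090.

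Replicate 1 held less of the extraembryonic endoderm markers, and these values stand beside the ribosomal protein genes without a test of their part in them. Their summed FPKM was 604, 823 and 831 in replicates 1, 2 and 3, with 17 of 18 lowest in replicate 1 and a median deviation of -0.27, 0.14 and 0.13 (log2). Neuron markers summed to 3714, 3565 and 3530 FPKM, with 0 of 16 lowest in replicate 1 and 11 lowest in replicate 3. Of all genes averaging 1 FPKM or more, 36.6% were lowest in replicate 1 and 31.3% in replicate 3. The summed FPKM of the ribosomal protein genes was 31121, 31227 and 31729. It varied far less between replicates than that of the endoderm markers. The highest mean among those markers was 269 FPKM and their median 7.50, so their sum rests mostly on a few high genes. Whether these genes are confined to endoderm cells here was not tested.

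The spread of single genes between replicates was near that of other genes. The median SD of log2(FPKM + 1) over replicates was 0.040 for the 78 members averaging 10 FPKM or more and 0.049 for all 6116 such genes. Among genes averaging 100 FPKM or more, it was 0.034 for 66 members and 0.038 for 459 other genes. An SD over 0.1 was found for 10 of the 78 (12.8%), against 12.1% of all genes, and 8 of these 10 had means under 100 FPKM. Among the largest SDs were those of Rpl26 (0.45), Rpl30 (0.32), Rpl37 (0.19) and Rps29 (0.17). Rpl26, Rpl30 and Rpl37 were all lowest in replicate 1 and highest in replicate 3, and Rps29 was lowest in replicate 3. At the other end, Rpl11 and Rpl28 (0.0057) varied least. The plot of deviation and spread shows these few genes outside an otherwise narrow band.

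**Figure D3:**
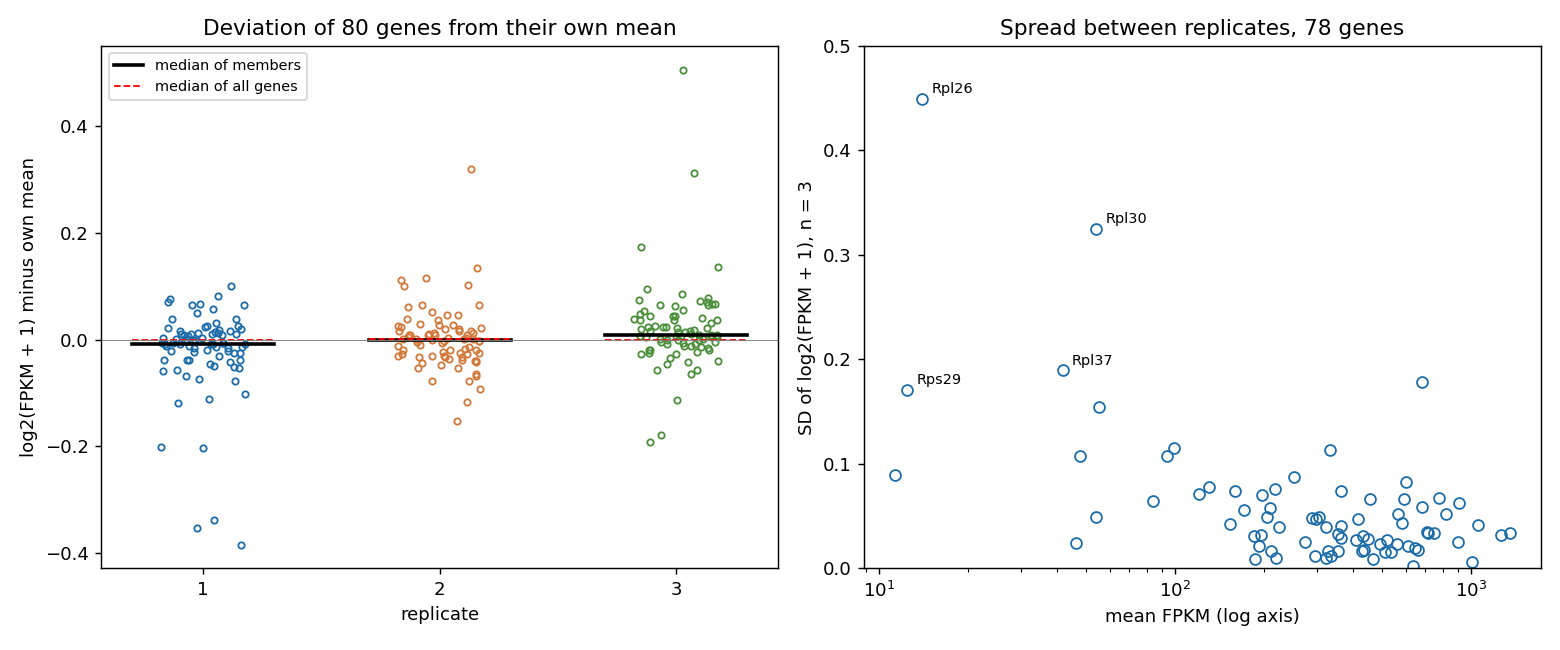
Left, log2(FPKM + 1) minus the gene's own mean for 80 ribosomal protein genes in each replicate, with the median of the members (solid) and of all genes (dashed); right, SD of log2(FPKM + 1) over 3 replicates against mean FPKM (log axis) for 78 genes. The medians lie within 0.01 of 0 in every replicate, and Rpl26 and Rpl30 have the largest SDs at 0.45 and 0.32.

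The annotated starts of the genes were examined for the TOP tract, since it is the sequence these mRNAs share. RefSeq windows of GRCm38.p6, from 250 bases before to 50 bases after each start, were at hand for 60 of the 81 genes. Of these, 10 had more than 1 annotated start. Among the 50 with 1 start, the base after the first 250 was the RefSeq gene start for 42. The stretches below run 5′ to 3′ from 35 bases before to 25 bases from the start, with capitals for an unbroken run of C and T that begins with C at the annotated start. The first 7 are genes at high, middle and low levels with such a run, and the last 2 are high genes without one.
Rpl28 (chr7:4792930-4792989, plus strand): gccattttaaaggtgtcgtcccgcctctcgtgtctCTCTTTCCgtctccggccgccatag
Rpl38 (chr11:114668545-114668604, plus strand): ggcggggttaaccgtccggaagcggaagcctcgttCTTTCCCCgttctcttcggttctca
Rpl35 (chr2:39005107-39005166, minus strand): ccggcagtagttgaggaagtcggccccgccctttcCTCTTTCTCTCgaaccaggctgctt
Rps6 (chr4:86857343-86857402, minus strand): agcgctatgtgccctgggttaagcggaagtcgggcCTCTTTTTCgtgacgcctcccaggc
Rps10 (chr17:27635220-27635279, minus strand): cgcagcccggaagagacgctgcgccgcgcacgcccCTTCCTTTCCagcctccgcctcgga
Rplp2 (chr7:141447616-141447675, plus strand): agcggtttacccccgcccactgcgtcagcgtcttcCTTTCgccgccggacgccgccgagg
Rps15a (chr7:118116123-118116182, minus strand): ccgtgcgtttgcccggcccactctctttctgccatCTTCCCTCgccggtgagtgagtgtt
Rpl11 (chr4:136053369-136053428, minus strand): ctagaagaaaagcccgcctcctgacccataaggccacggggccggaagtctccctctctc
Rpl41 (chr10:128549144-128549203, minus strand): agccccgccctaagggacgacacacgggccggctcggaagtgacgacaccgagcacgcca

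A C followed by at least 4 C or T at an annotated start was found for 13 of the 60 genes (21.7%), 3.01% of all 27025 genes with a window and 4.05% of 321 other genes averaging 100 FPKM or more. The annotated start may lie some bases from the start used in these cells, as in Rpl11, where a run of C and T follows within the printed bases, so a missing run says nothing about the mRNA. Genes with the run had a median of 298 FPKM and a range from 5.84 (Rps15a) to 1007 (Rpl28), and the 47 others a median of 335. The run was therefore present at both high and low genes. CCGGAA, the core bound by ETS factors such as GABP, was found on either strand of the 300 bases in 33 of 60 genes (55.0%), against 16.7% of all genes and 30.5% of the other high genes. AAGATGGC, which resembles the YY1 site, was found in 5 (8.33%), against 3.19% of all genes and 7.48% of the other high genes, near the members' share. TATAAA was found in 6 (10%), against 15.7% and 15.0%. Each word was searched on its own without regard to overlap with the others, and a match is a description and not a measured binding site.

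Other lists of translation genes had lower medians than the ribosomal protein genes, though Eef1a1 exceeded every one of them and Eef2 and Eef1g lay above their median. Of the elongation factor genes, all 7 reached 1 FPKM in every replicate, against 50.7% of all genes. Their median was 97.0 FPKM, led by Eef1a1 (2561 ± 11.2; SD, n = 3), Eef2 (709 ± 4.81) and Eef1g (389 ± 2.80). Of 31 initiation factor genes 30 reached 1 FPKM in every replicate, with a median of 61.0 FPKM, led by Eif1 (332 ± 3.34), Eif4a1 (259 ± 5.34) and Pabpc1 (172 ± 6.55). The exception, Eif3j1, was listed at 9.38, 0.0694 and 0.0508 FPKM, so its mean is of little use. All 32 genes of ribosome assembly and rRNA synthesis reached 1 FPKM, with a median of 20.2 FPKM and Npm1 (218 ± 4.65) at the top.

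Regulators of TOP mRNAs were expressed at modest levels. All 14 reached 1 FPKM in every replicate, against 50.7% of all genes, with a median of 11.7 FPKM. Among them were Cnbp (96.7 ± 2.06; SD, n = 3), Larp1 (27.4 ± 0.125), which binds the TOP cap, Eif4ebp2 (33.5 ± 1.00) and Rheb (27.9 ± 1.39), the activator of mTOR. Host genes of snoRNAs have spliced RNAs that also begin with a TOP tract. Of 8 genes on their list, 7 reached 1 FPKM, led by Snhg5 (22.5 ± 1.17) and Snhg6 (22.3 ± 3.19), whose ranges overlapped. The other, Rnu12, is a small nuclear RNA gene to which the TOP tract does not apply, and was listed at 0. Ribosomal genes outside the symbol rule ranged widely, with Rpl22l1 and Rpl7l1, given above, far below the median of the set. Fau (336, 398 and 400 FPKM), which encodes a ribosomal protein fused to a ubiquitin-like protein, had its lowest value in replicate 1. Gnb2l1, the scaffold RACK1, stood at 336, 321 and 331 FPKM, and Rps3a1, added after its values were seen, at 322, 334 and 346. The plot of translation gene lists sets these groups side by side.

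**Figure D4:**
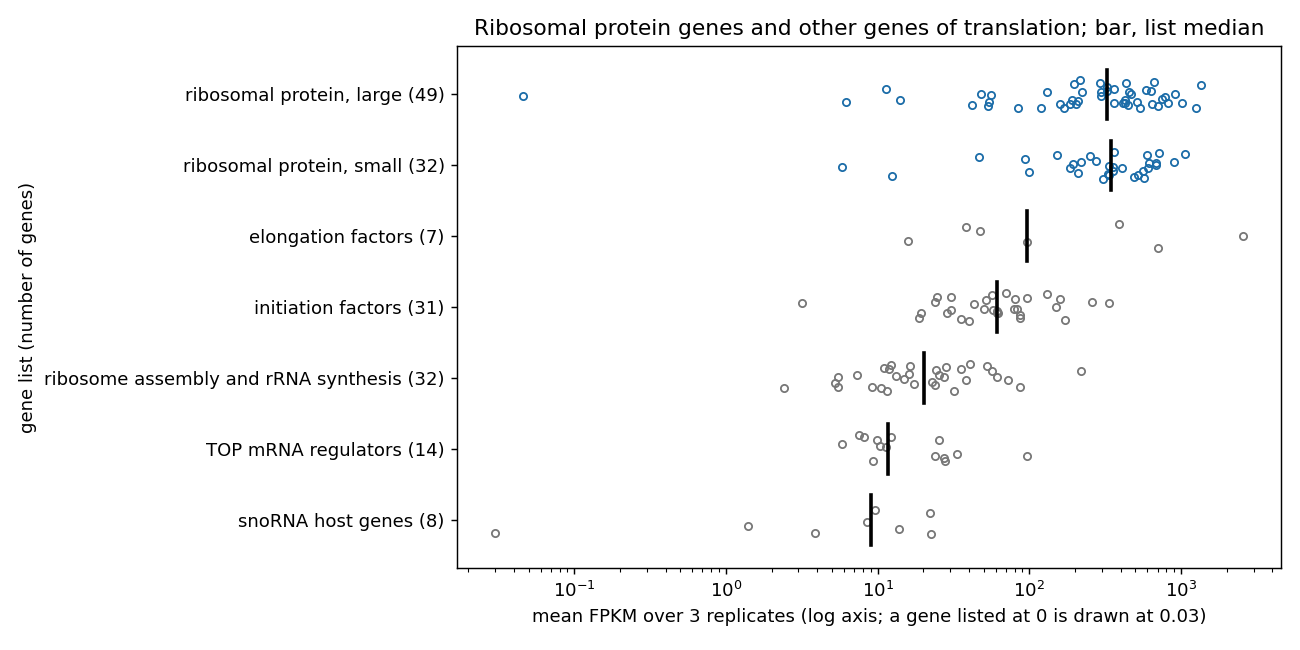
Mean FPKM over 3 replicates (log axis) of ribosomal protein genes of each subunit (blue) and of other lists of translation genes (grey), 1 point per gene, with a bar at each list's median. The medians fall from 345 and 322 FPKM for the small and large subunit to 97.0 for elongation factors, 61.0 for initiation factors, 20.2 for ribosome assembly, 11.7 for TOP regulators and 9.07 for snoRNA hosts. The last median includes Rnu12, a small nuclear RNA gene listed at 0.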

How the data were processed

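The authors deposited 1 RNA-seq table with a column per replicate. Its header names no unit. Values were read as FPKM because the submitters' processing notes name Bowtie, Cufflinks and mm9, without versions. Scaling between libraries, strand use and the handling of reads that match several places are not stated in the labels. The ATAC-seq regions (mm9) were not used, for want of gene positions in that build. FPKM were used as deposited, and log2 values carry a pseudocount of 1. No test between conditions was possible, so levels over 3 replicates were described beside all 24002 genes, at thresholds of 1 and 100 FPKM. Relative depth came from the most common ratio of values between 0.001 and 0.1 FPKM (tolerance 0.004, natural log). Scripts were tested on simulated data.

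Genes described in full were, by rule, the 10 highest, the 10 lowest, stalk genes, paralogue pairs, disease and mouse mutant lists and the 5 most variable averaging 10 FPKM or more. From other lists the rule named the 3 highest and those under 1 FPKM. The members and lists were chosen with earlier results of these data known. Rps3a1, Nanog, Pou5f1, the copies and the promoters printed were chosen after values were seen. All 81 symbols matched RefSeq, used for names and biotypes. Promoter windows and their coordinates are RefSeq's (GRCm38.p6). Python 3.11.15, pandas 2.3.3 and numpy 2.4.6 were used. The values of some genes are not reported here, though they count in the totals.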

Additional observations from a re-analysis of the deposited data

How the results depend on the processing

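Of 79 alternative values, 72 stayed within the SD between replicates, or within 1.5 times for counts. Counts of genes at 1 FPKM ranged from 79 to 80 and at 100 FPKM from 55 (threshold of 200 FPKM) to 73 (copies added). The median FPKM over all members, 332, was 326 to 334 with a replicate left out, outside the SD of 3.37 only without replicate 2, and 364 with copies added. The large minus small subunit difference was -0.10 (log2), -0.11 to -0.09 with a replicate left out, and 0.22 with copies added. The share of summed FPKM, 6.29%, was 6.17% to 6.42% with a replicate left out, 9.75% without small RNA genes and 7.11% with copies added. Adding copies, and leaving genes with copies out of the deviations, were chosen after seeing the data. A pseudocount of 0.1 moved Rpl3 over Rpl3l from 7.52 to 10.4 and Rpl10 over Rpl10l from 5.76 to 5.86 (log2). The deviation in replicate 2 changed sign, at 0.00041, with no filter on low values, which is within the SD over replicates of 0.0086. Causes other than the added FPKM or pseudocount were not tested. No paired analysis was possible because the RNA-seq and ATAC-seq samples share replicate numbers but are different assays that were not compared. Absolute depth is unknown, so no counting interval could be given.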
